A study of Homo sapiens with 16 samples.

Results

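The interferon regulatory factors (IRFs) are a family of transcription factors, and 8 of its genes, IRF1, IRF2, IRF3, IRF4, IRF5, IRF7, IRF8 and IRF9, were followed here in HMC3, a cell line that was established from human microglia. The members were taken from the count table by their gene symbol, with earlier results of these data known, and each is 1 of the 25370 rows of the count table. RNA-seq had been performed on 8 treatment groups with 2 libraries each. The groups were vehicle, 0.1 nM estradiol (E2), and 400 nM of ketamine, 2R6R-HNK or 2S6S-HNK, with each of the 3 drugs given alone and together with 0.1 nM E2. HNK is hydroxynorketamine, a metabolite of ketamine, and 2R6R-HNK and 2S6S-HNK are mirror-image forms of one molecule. All 8 groups, vehicle included, had been held in charcoal-stripped serum and then without serum before 24 h of treatment. The comparisons ask how ketamine and its metabolites, with and without E2, act on immune genes of these cells.

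IRFs bind a DNA element that is found in front of interferons and of the genes that interferons switch on. IRF3 and IRF7 wait in the cytoplasm until kinases such as TBK1 phosphorylate them, and then enter the nucleus to switch on type I interferon genes. IRF9 works one step later, since it joins STAT2 below the interferon receptor and gives that complex its DNA contact. IRF1 is an activator that STAT factors induce, IRF2 binds the same element and is known as its antagonist, IRF5 acts below Toll-like receptors, and IRF4 and IRF8 are factors of blood cell lineages. In microglia of the brain, IRF8 is known as a lineage factor.

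The 250 bases before the transcription start are shown for IRF1 and IRF9, because these are the members whose differences from vehicle are described most fully below. They come from RefSeq promoter windows (build GRCh38.p14, 250 bases before to 50 after the start), which matched IRF1, IRF4, IRF5, IRF8 and IRF9 (9 windows, since IRF5 has 4 and IRF8 has 2) and not IRF2, IRF3 and IRF7. Capitals mark TTCNNNGAA, the spaced palindrome that STAT factors are known to bind, and GAANNGAAA, a core of the element that IRFs are known to bind. Both motifs were searched on both strands and were chosen after the windows had been seen.
IRF1: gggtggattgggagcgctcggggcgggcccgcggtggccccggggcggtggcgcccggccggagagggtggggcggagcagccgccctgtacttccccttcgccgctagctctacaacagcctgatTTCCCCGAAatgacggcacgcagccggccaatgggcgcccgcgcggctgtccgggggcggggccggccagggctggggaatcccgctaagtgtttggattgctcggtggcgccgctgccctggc
IRF9: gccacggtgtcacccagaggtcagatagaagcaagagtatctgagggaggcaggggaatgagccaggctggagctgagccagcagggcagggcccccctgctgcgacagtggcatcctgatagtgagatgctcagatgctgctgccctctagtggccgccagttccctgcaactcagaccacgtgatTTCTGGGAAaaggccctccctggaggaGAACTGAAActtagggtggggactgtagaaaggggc

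The IRF1 stretch is chr5:132490774-132491023 on the minus strand, and the IRF9 stretch is chr14:24161015-24161264 on the plus strand. With positions counted from the start, the base before it being -1, the IRF1 window held TTCCCCGAA from -124 on and no GAANNGAAA. The IRF9 window held TTCTGGGAA from -63 on and GAACTGAAA from -36 on. Of 35116 windows of the same length, 7.66% held TTCNNNGAA and 7.66% held GAANNGAAA. Neither the IRF4 window nor any of the IRF5 and IRF8 windows held TTCNNNGAA, while GAANNGAAA was found in 1 of the 4 IRF5 windows and in 1 of the 2 IRF8 windows. The study's primers for chromatin immunoprecipitation at IRF9, AGTGGCATCCTGATAGTGAGA and GCTCAGACGACCTCAGCTTA, enclose 190 bases of this window, and both IRF9 motifs lie between them. A match gives only the letters of a window.

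The 16 libraries held 55300614 to 81646165 counts each. The counts were normalized by the trimmed mean of M values (TMM) and are given as CPM, each count scaled to the adjusted library total, and differences are log2 fold changes ± standard error (SE) from edgeR's quasi-likelihood test. A gene was called at an adjusted p under 0.05, and 16004 genes were tested. The labels do not say that the 2 libraries of a group came from separate cultures, so the p-values measure only the spread between these libraries. An exact permutation test of 2 libraries against 2 cannot go below a two-sided p of 0.333. In 14 of 16 libraries the most similar other library was the replicate. Of the 11 markers of microglia and macrophages, 3 were tested, namely CD68 at 17.4 to 23.4 CPM and CSF1R and TREM2 at no more than 1.30 CPM. C1QA was at 0 in every library, while AIF1, CX3CR1, P2RY12, TMEM119, ITGAM, PTPRC and SPI1, the partner factor of IRF4 and IRF8, reached at most 7 counts. The summed level of this list was 18.8 to 25.0 CPM. Of 6 markers of fibroblasts and pericytes, COL1A1, COL1A2 and PDGFRB were tested, while COL3A1, DCN and LUM reached at most 12 counts, and the list summed to 3959 to 5861 CPM, mostly COL1A1. The 4 neuronal markers summed to 75.3 to 143 CPM, mostly TUBB3, and the lists of astrocytes, oligodendrocytes and lymphocytes to at most 8.94 CPM each. In these bulk libraries fewer cells of a type and less RNA per cell cannot be told apart.

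Of the 8 members, 6 were tested and 2 had too few counts. Per transcript length, the order in vehicle was IRF3 at 23.2, IRF7 at 15.7, IRF9 at 9.97, IRF1 at 4.25, IRF2 at 3.67 and IRF5 at 0.403 FPKM, which is CPM per kilobase of transcript. IRF4, which acts in lymphocytes and macrophages, had 49 counts in all 16 libraries together, from 0 in both E2 and both E2+2S6S-HNK libraries to 12 in E2+ketamine replicate 1. IRF8 had 11 counts in all, and 11 of 16 libraries were at 0. Its highest values were 4 and 2 counts in the E2 libraries, against 2 and 0 in vehicle. At this depth a count of 0 in the smallest library allows up to 0.0547 CPM (3 counts, counting error only), so differences of IRF4 and IRF8 below such levels were not detectable, and neither gene was tested.

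**Figure D1:**
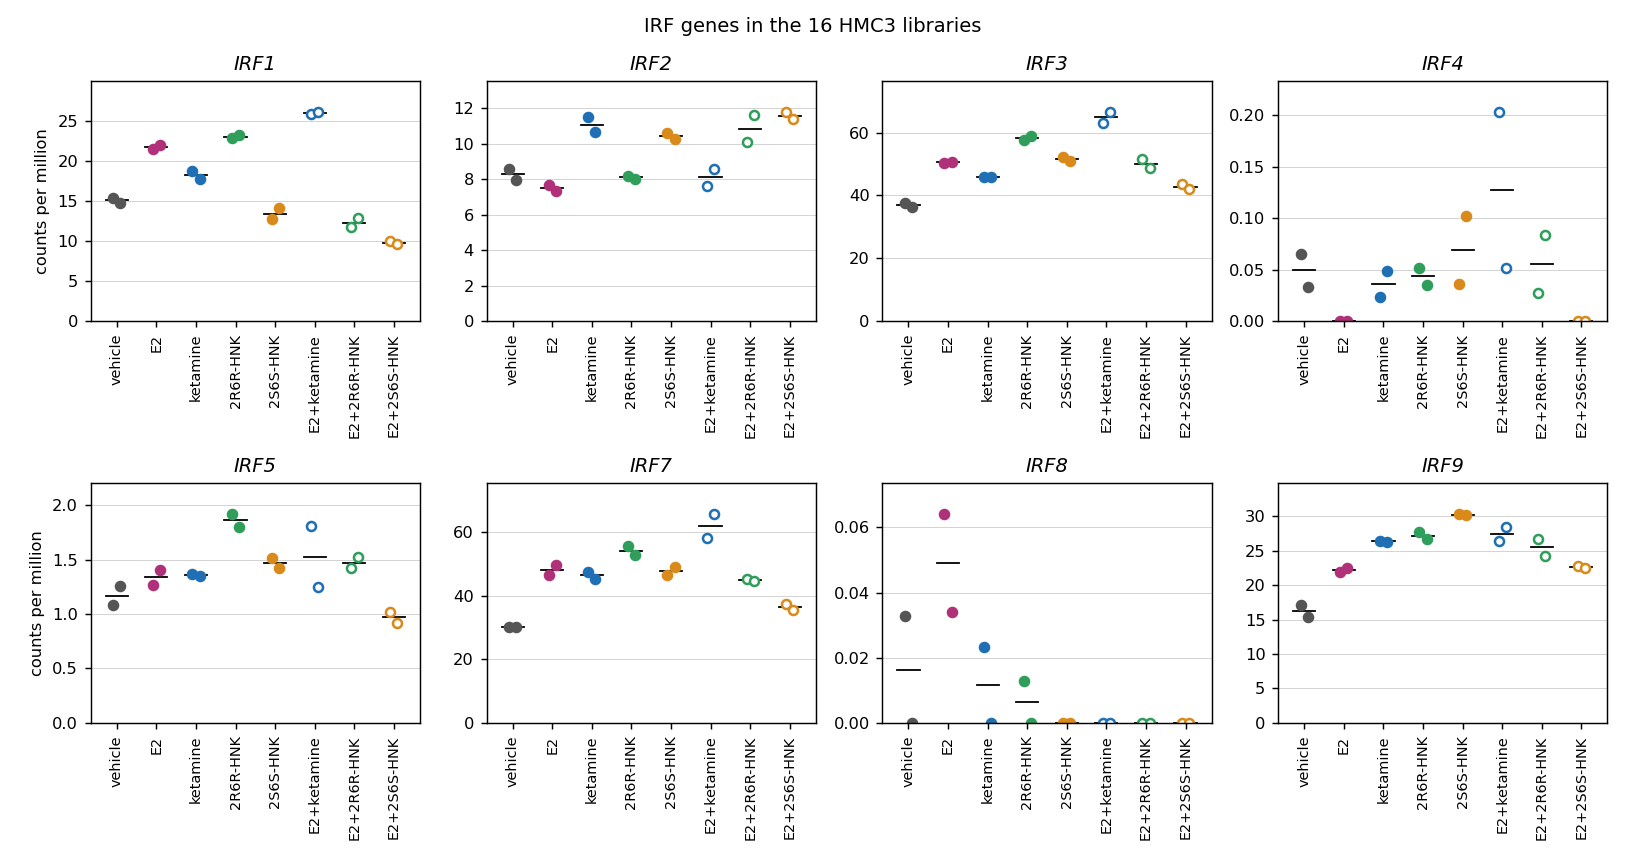
Level of each of the 8 IRF genes in every library, in CPM on linear axes that start at 0. Each point is a library (open points: drug given with E2) and each line the mean of the 2 libraries of a group. IRF3, IRF7 and IRF9 were lowest in vehicle, IRF1 spanned 9.58 to 26.1 CPM, and IRF4 and IRF8 stayed near 0.

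The genes in GRCh37, whose chromosome sequences are those of the authors' hg19, are spread over 8 chromosomes. Given by the canonical GENCODE transcript, IRF3 lies at chr19:50162829-50169114 (minus strand, 8 exons), IRF7 at chr11:612555-615950 (minus, 11 exons) and IRF5 at chr7:128577981-128590092 (plus, 9 exons). IRF9 lies at chr14:24630474-24635774 (plus, 9 exons), IRF1 at chr5:131817301-131826465 (minus, 10 exons) and IRF2 at chr4:185308883-185395704 (minus, 9 exons). IRF4 lies at chr6:391752-411443 and IRF8 at chr16:85932768-85956212, both on the plus strand with 9 exons. Whether the counting used strand is not given in the sources used here. Exons of IRF3 overlap those of BCL2L12 on the opposite strand by 734 bases, and exons of IRF1 overlap the antisense gene IRF1-AS1 by 2805 bases. Exons of IRF9 overlap a protein-coding gene without a symbol on the same strand by 1544 bases, while the canonical IRF9 transcript has 1626 bases. That gene was not matched to a row of the count table. How much of the counts of IRF1, IRF3 and IRF9 comes from the overlapping genes is therefore uncertain. BCL2L12 was itself higher than vehicle in all 7 treatments, by log2 0.27 to 0.70.

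The members differ in GC content, and so did the libraries. Across 15170 genes with a known transcript, the log2 fold change against vehicle rose with GC content in each of the 7 treatments, with a Spearman correlation over genes, which are not independent replicates, of 0.453 for E2+2S6S-HNK to 0.780 for E2+ketamine. The transcripts of IRF7 (66.6% GC, 97.6th percentile of those genes) and IRF3 (61.3%, 86.8th percentile) are rich in GC, while IRF5 (57.8%), IRF9 (54.7%), IRF1 (53.0%) and IRF2 (45.2%) lie closer to the median of 49.4%. Values from a second fit, in which each library's trend with GC content and transcript length was removed, are therefore given beside the results. The source of the trend was not tested.

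IRF3 and IRF7, the factors that switch on type I interferon genes, were higher than vehicle in all 7 treatments as counted. IRF3 was at 37.7 and 36.2 CPM in vehicle and at 50.2 and 50.8 CPM under E2. It was at 45.8 and 45.8 CPM under ketamine, 57.6 and 58.8 under 2R6R-HNK and 52.1 and 50.9 under 2S6S-HNK. With E2 it was at 63.2 and 66.5 CPM under ketamine, 51.6 and 48.6 under 2R6R-HNK and 43.5 and 42.1 under 2S6S-HNK. No treated library overlapped vehicle, and E2+ketamine was the highest group. The log2 fold change ran from 0.21 ± 0.0452 under E2+2S6S-HNK (adjusted p = 5.56e-05) to 0.81 ± 0.0445 under E2+ketamine (1.75-fold, adjusted p = 3.5e-22). After the GC and length correction IRF3 was called higher under 2R6R-HNK (0.15) and E2+ketamine (0.13) only, and the other 5 differences lay between -0.08 and 0.06.

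IRF7, which interferon is known to induce, showed as counted the largest difference from vehicle of the 6 members, but not after the correction. It was at 30.2 and 30.0 CPM in vehicle, 46.5 and 49.7 under E2 and 47.4 and 45.3 under ketamine. It was at 55.6 and 52.7 CPM under 2R6R-HNK and 46.5 and 49.0 under 2S6S-HNK. With E2 it was at 58.1 and 65.6 CPM under ketamine, 45.3 and 44.5 under 2R6R-HNK and 37.3 and 35.6 under 2S6S-HNK. All 14 treated libraries were above both vehicle libraries. E2+ketamine was 1.04 ± 0.0511 above vehicle on the log2 scale (2.05-fold, adjusted p = 4.9e-24), and E2+2S6S-HNK, the smallest difference, 0.28 ± 0.0523 (adjusted p = 9.57e-06). After the correction IRF7 was called higher under E2 (0.16), ketamine (0.18), 2R6R-HNK (0.21) and E2+ketamine (0.19), was not called under 2S6S-HNK (0.05), and was called lower under E2+2R6R-HNK (-0.10) and E2+2S6S-HNK (-0.12).

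IRF5, which is switched on below Toll-like receptors, had 59 to 148 counts a library. It was at 1.08 and 1.26 CPM in vehicle and at 1.92 and 1.80 CPM under 2R6R-HNK. The other 6 treatments lay between 0.917 CPM in an E2+2S6S-HNK library and 1.81 CPM in an E2+ketamine library. Only 2R6R-HNK differed from vehicle by the test (0.67 ± 0.221, adjusted p = 0.00645). That call was lost without vehicle replicate 1 (0.56) and after the correction (0.29), and E2+ketamine, whose 2 libraries differed (1.81 and 1.25 CPM), passed the test without its replicate 2 (0.63).

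IRF9, a DNA-binding part of the complex that interferon activates, was higher than vehicle in all 7 treatments, with and without the correction. It was at 17.1 and 15.4 CPM in vehicle, 21.9 and 22.5 under E2 and 26.5 and 26.2 under ketamine. It was at 27.8 and 26.7 CPM under 2R6R-HNK and 30.3 and 30.1 under 2S6S-HNK. With E2 it was at 26.4 and 28.4 CPM under ketamine, 26.7 and 24.3 under 2R6R-HNK and 22.8 and 22.5 under 2S6S-HNK. The 14 treated libraries were all above vehicle, 2S6S-HNK was highest, and E2 and E2+2S6S-HNK were the lowest of the treated groups and overlapped each other. The difference ran from 0.45 ± 0.0638 under E2 (1.37-fold, adjusted p = 1.87e-08) to 0.90 ± 0.0624 under 2S6S-HNK (1.86-fold, adjusted p = 4.82e-18). The corrected differences were 0.25 under E2, 0.52 under ketamine, 0.46 under 2R6R-HNK, 0.62 under 2S6S-HNK, 0.38 under E2+ketamine, 0.36 under E2+2R6R-HNK and 0.34 under E2+2S6S-HNK, all called. IRF9, whose promoter is printed above, was the one member called higher in all 7 treatments in both fits. The 7 comparisons share the vehicle libraries, so their calls are not independent. In single treatments 24% to 34.3% of all genes were higher as counted, and 14.9% to 25.8% after the correction. How many of all genes were higher in all 7 was not counted.

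IRF1, the activator, moved both ways. It was at 15.4 and 14.8 CPM in vehicle and at 21.5 and 22.0 under E2. It was at 18.7 and 17.7 CPM under ketamine, 22.8 and 23.2 under 2R6R-HNK and 12.8 and 14.1 under 2S6S-HNK. With E2 it was at 25.9 and 26.1 CPM under ketamine, 11.7 and 12.9 under 2R6R-HNK and 10.0 and 9.58 under 2S6S-HNK. Both libraries of E2, ketamine, 2R6R-HNK and E2+ketamine were above vehicle, and both libraries of the other 3 treatments were below it. E2+ketamine was 1.72-fold above vehicle (0.78 ± 0.0673, adjusted p = 6.21e-15), and E2+2S6S-HNK was at 0.650 of vehicle (-0.62 ± 0.0725, adjusted p = 1.99e-10). The differences were 0.52 under E2, 0.61 under 2R6R-HNK, 0.27 under ketamine, -0.30 under E2+2R6R-HNK and -0.17 under 2S6S-HNK, each called. The call under 2S6S-HNK (adjusted p = 0.0328) was lost without 2S6S-HNK replicate 1 (-0.10), without vehicle replicate 1 (-0.14) and with 5 other settings, whereas the corrected value was -0.36 and called. After the correction the call under ketamine was lost (0.11), and the other differences were 0.36 under E2, 0.43 under 2R6R-HNK, 0.56 under E2+ketamine, -0.52 under E2+2R6R-HNK and -0.71 under E2+2S6S-HNK, all called.

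IRF2, the antagonist of IRF1 at the same element, fell into 2 sets of treatments. It was at 8.57 and 7.99 CPM in vehicle, 7.66 and 7.34 under E2, 8.21 and 7.99 under 2R6R-HNK and 7.62 and 8.60 under E2+ketamine. It was at 11.5 and 10.7 CPM under ketamine, 10.6 and 10.3 under 2S6S-HNK, 10.1 and 11.6 under E2+2R6R-HNK and 11.8 and 11.4 under E2+2S6S-HNK. The lowest library of the second set was above the highest of the first. Within each set, neighbouring groups overlapped, except that both E2 libraries were below both 2R6R-HNK libraries. The 4 treatments of the second set were called higher than vehicle by 0.33 to 0.49 (adjusted p = 0.00113 to 4.52e-06), and the 3 of the first differed from it by -0.14, -0.03 and -0.03, with 95% intervals of -0.33 to 0.05 for E2, -0.21 to 0.16 for 2R6R-HNK and -0.22 to 0.16 for E2+ketamine. After the correction the second set was higher by 0.57 to 0.62, E2+ketamine was also called higher (0.29), and E2 (0.07) and 2R6R-HNK (0.20) were not called.

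**Figure D2:**
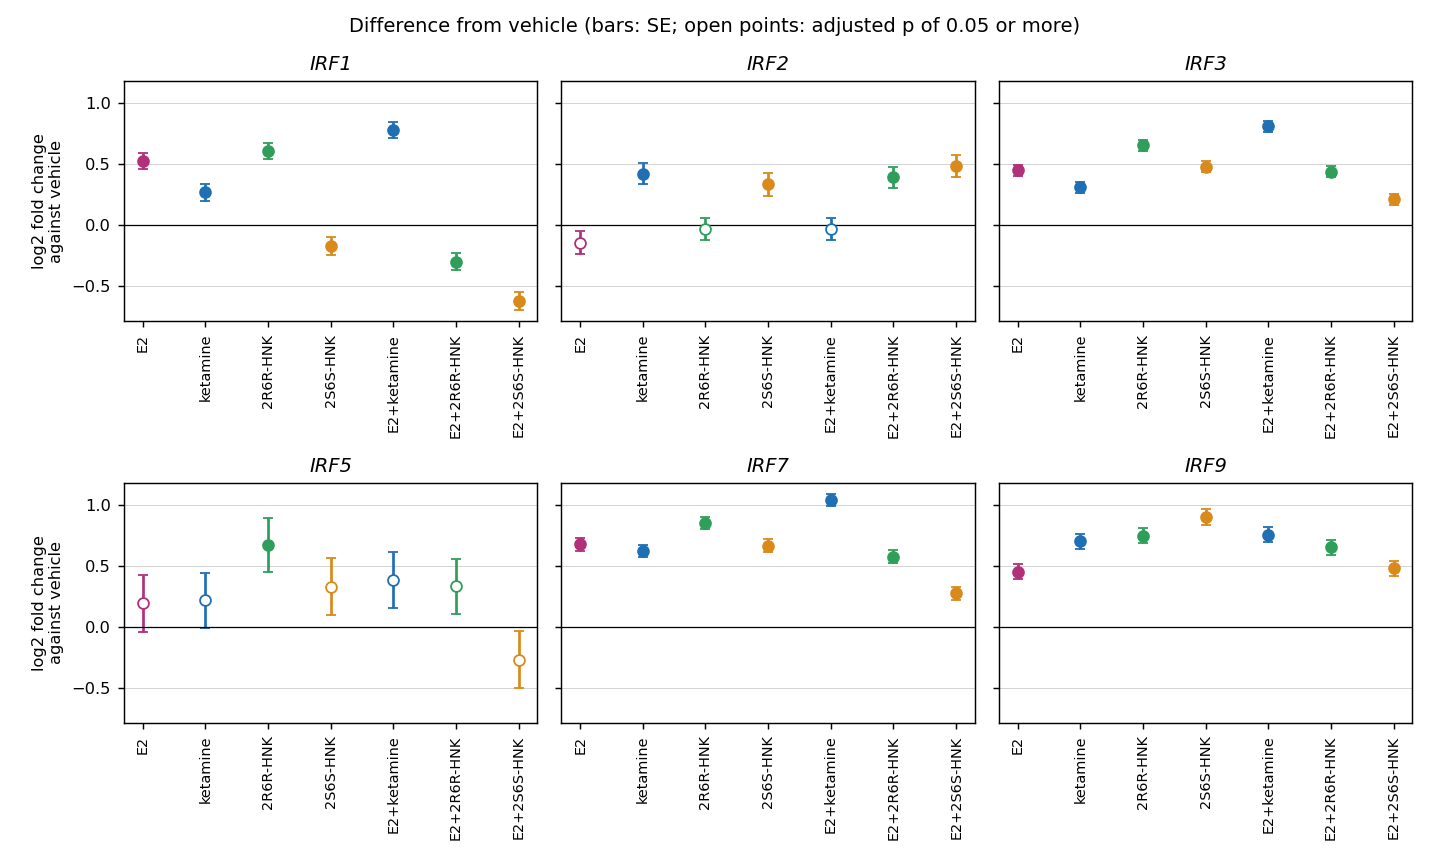
Log2 fold change against vehicle of the 6 IRF genes tested, with the SE from edgeR, in the 7 treatments. Filled points passed an adjusted p of 0.05 and open points did not. As counted, before the GC and length correction, IRF3, IRF7 and IRF9 were above 0 throughout, IRF1 ran from -0.62 to 0.78, and IRF2 was above vehicle in 4 treatments.

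Read against all genes, the members' rises stood in libraries where many genes moved. Under E2, 4 of the 6 members were called higher and 0 lower, where 29.9% of all genes tested were higher and 32.7% lower. Under ketamine 5 were higher and 0 lower, against 26.8% and 32.5% of all genes. Under 2R6R-HNK 5 were higher and 0 lower (all genes 31.7% and 34.9%), and under 2S6S-HNK 4 were higher and 1 lower (32.1% and 35.8%). Under E2+ketamine 4 were higher and 0 lower (34.3% and 37.4%). Under E2+2R6R-HNK 4 were higher and 1 lower (33.4% and 36.3%), and under E2+2S6S-HNK 4 were higher and 1 lower (24% and 35.7%). As counted, the median log2 fold change of the 6 members was 0.25 under E2+2S6S-HNK to 0.77 under E2+ketamine, while that of all genes was -0.0643 to -0.00268. These 7 comparisons share the vehicle libraries. In the corrected fit the members went both ways under E2+2S6S-HNK, from -0.71 (IRF1) to 0.60 (IRF2). Under E2+ketamine they ran from -0.12 (IRF5) to 0.56 (IRF1) in that fit. After the correction 3 members were higher and 0 lower under E2 (all genes 14.9% and 21.9% in that fit), 3 and 0 under ketamine (18% and 30.7%), 4 and 0 under 2R6R-HNK (19.9% and 24.2%) and 2 and 1 under 2S6S-HNK (25% and 31.2%). With E2 they were 5 and 0 under ketamine (23.9% and 27.7%), 2 and 2 under 2R6R-HNK (25.8% and 33.1%) and 2 and 2 under 2S6S-HNK (22.4% and 33.7%).

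**Figure D3:**
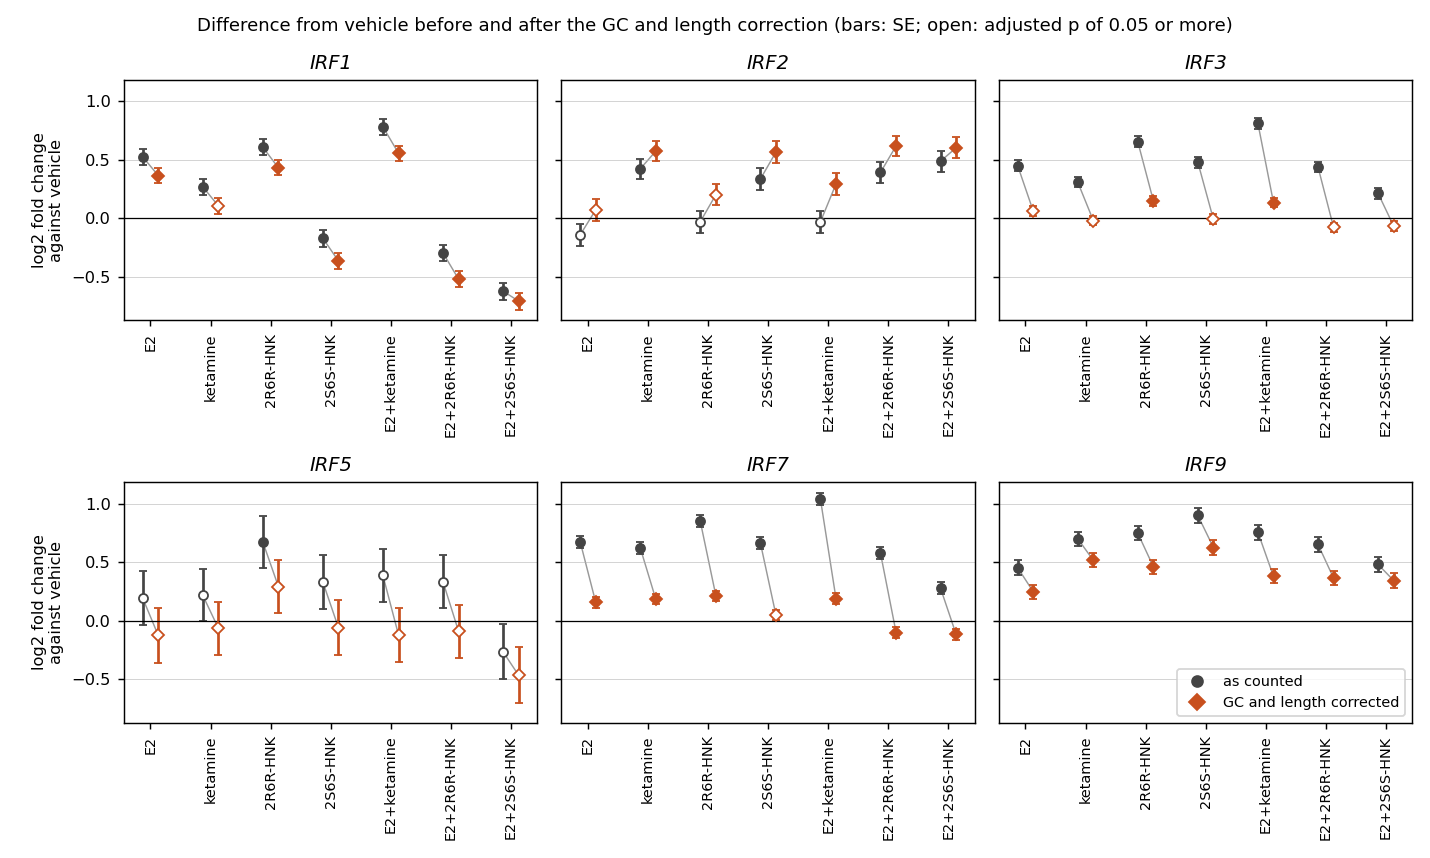
Log2 fold change against vehicle of the 6 IRF genes as counted (circles) and after the GC and length correction (diamonds), with SE, on one scale. Open symbols did not pass an adjusted p of 0.05. IRF9 was above 0 in all 7 treatments in both fits, IRF1 kept its directions, and IRF3 and IRF7 came down to between -0.12 and 0.21.

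The 3 drugs were then compared with each other at 400 nM and 24 h, as 3 pairs without E2 and 3 pairs with E2. Without E2, the mirror-image metabolites differed most at IRF1. There 2R6R-HNK was 1.71-fold above 2S6S-HNK (0.78 ± 0.0687, adjusted p = 1.42e-13), and the corrected value was 0.80. Ketamine lay between them, with 2R6R-HNK above it by 0.34 ± 0.0641 (adjusted p = 1.61e-05) and 2S6S-HNK below it by the test (-0.44 ± 0.0687, adjusted p = 4.42e-07). For IRF2, 2R6R-HNK was instead the lowest of the 3 drugs, below 2S6S-HNK (-0.36 ± 0.0904, adjusted p = 0.000817) and below ketamine (-0.45 ± 0.0868, adjusted p = 1.98e-05). The difference of IRF2 between 2S6S-HNK and ketamine was -0.09, with a 95% interval of -0.26 to 0.09.

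IRF3 and IRF7 were higher under 2R6R-HNK than under 2S6S-HNK by 0.18 each (adjusted p = 0.000772 and 0.00193) and than under ketamine by 0.34 and 0.23. The IRF7 difference between the metabolites was 0.14 and not called without 2R6R-HNK replicate 1. After the correction IRF3 was 0.17 above ketamine under 2R6R-HNK and called, while IRF7 was 0.03 above it and not called. IRF3 under 2S6S-HNK was 0.17 above ketamine as counted (adjusted p = 0.00105) and 0.01 above it after the correction. IRF7 under 2S6S-HNK was 0.04 above ketamine (95% interval -0.06 to 0.14), and after the correction it was called lower (-0.14). IRF9 was higher under 2S6S-HNK than under ketamine by 0.20 ± 0.0577 (adjusted p = 0.00373), and that call was lost after the correction (0.11). IRF9 was lower under 2R6R-HNK than under 2S6S-HNK (-0.15, adjusted p = 0.033), a call that was lost when any 1 of those 4 libraries was left out (-0.18 to -0.12), while the corrected value was -0.16 and called. The difference of IRF9 between 2R6R-HNK and ketamine was 0.05 (95% interval -0.07 to 0.16). IRF5 differed between none of these 3 pairs by the test, with intervals of 0.04 to 0.88 for 2R6R-HNK against ketamine, -0.09 to 0.78 for 2R6R-HNK against 2S6S-HNK and -0.33 to 0.55 for 2S6S-HNK against ketamine.

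Counted over the 6 members, 2R6R-HNK against ketamine gave 3 higher and 1 lower, where 22.6% and 22.8% of all genes were called, and 2 higher and 1 lower after the correction (24% and 13.7%). For 2S6S-HNK against ketamine 2 were higher and 1 lower (all genes 24.2% and 22%), and after the correction 0 were higher and 2 lower (23.8% and 17.1%). For 2R6R-HNK against 2S6S-HNK 3 were higher and 2 lower (all genes 21% and 22.4%), and the members called came to 3 without 2R6R-HNK replicate 1.

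With E2 the order of the drugs at IRF1 changed. E2+2R6R-HNK was at 0.474 of E2+ketamine (-1.08 ± 0.0674, adjusted p = 4.11e-19) and E2+2S6S-HNK at 0.378 of it (-1.40 ± 0.0693, adjusted p = 1.07e-23). Both libraries of either group were below both E2+ketamine libraries. The corrected values were -1.07 and -1.26, both called. The metabolites still differed, with E2+2R6R-HNK above E2+2S6S-HNK by 0.33 ± 0.0727 (adjusted p = 0.000138) and by 0.19 after the correction, which was called. IRF2 was higher under both than under E2+ketamine, by 0.42 ± 0.0892 and 0.52 ± 0.0888 (adjusted p = 7.25e-05 and 1.2e-06), and by 0.32 and 0.31 after the correction, both called. Between E2+2R6R-HNK and E2+2S6S-HNK the difference of IRF2 was -0.10, with a 95% interval of -0.26 to 0.07.

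IRF3 and IRF7 were lower under both metabolites with E2 than under E2+ketamine. The differences were -0.37 and -0.60 for IRF3 and -0.46 and -0.76 for IRF7, in the order 2R6R-HNK and 2S6S-HNK (adjusted p = 1.9e-10 to 3.58e-19). After the correction they were -0.21 and -0.20 for IRF3 and -0.29 and -0.31 for IRF7, all called. IRF9 was lower under E2+2S6S-HNK than under E2+ketamine (-0.27, adjusted p = 6.42e-05), but not called after the correction (-0.04). For E2+2R6R-HNK against E2+ketamine the IRF9 difference was -0.10 (95% interval -0.22 to 0.02), and it passed the test without E2+2R6R-HNK replicate 1 (-0.17). IRF5 was lower under E2+2S6S-HNK than under E2+ketamine (-0.65 ± 0.229, adjusted p = 0.0107), a call lost without E2+ketamine replicate 1 (-0.36), without E2+2S6S-HNK replicate 2 (-0.58) and after the correction (-0.34). For E2+2R6R-HNK against E2+ketamine the IRF5 difference was -0.05 (95% interval -0.49 to 0.38).

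Of the members, E2+2R6R-HNK against E2+ketamine gave 1 higher and 3 lower (all genes 26.7% and 25.3%), and E2+2S6S-HNK against E2+ketamine 1 higher and 5 lower (all genes 35% and 31.7%). After the correction each gave 1 higher and 3 lower (22.1% and 27.6%, and 24.9% and 30.5%). E2+2R6R-HNK against E2+2S6S-HNK gave 5 higher and 0 lower (all genes 29.1% and 25%). Those 5 were IRF1, IRF3 (0.23), IRF5 (0.60), IRF7 (0.30) and IRF9 (0.17). Without E2+2S6S-HNK replicate 2 the count was 3, since IRF5 (0.53) and IRF9 (0.16) were lost. IRF5 was also lost without E2+2R6R-HNK replicate 2 (0.55) and IRF9 without E2+2R6R-HNK replicate 1 (0.10). After the correction the count was 1 (all genes 17.2% higher and 11.8% lower in that fit), and that gene was IRF1.

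Whether E2 changed the effect of a drug was tested by the interaction, which is the log2 effect of the drug on top of E2 minus its effect on vehicle. For ketamine the effect on IRF1 was 0.27 ± 0.0673 without E2 and 0.26 ± 0.0648 on top of it, and the interaction was -0.01 with a 95% interval of -0.20 to 0.17. For IRF3 the interaction with ketamine was 0.05, with an interval of -0.07 to 0.18. IRF7 and IRF9 were called, at -0.26 ± 0.0706 and -0.40 ± 0.0862 (adjusted p = 0.00271 and 0.000182), and both kept the call after the correction at -0.15 and -0.38. IRF7 lost it without E2+ketamine replicate 1 (-0.17). IRF2 was at -0.31 and not called (adjusted p = 0.0528), but passed the test with 7 other settings, the correction among them (-0.35). The interaction of IRF5 with ketamine was -0.02, with an interval of -0.66 to 0.61. Of the 6 members, 0 had a positive and 2 a negative interaction with ketamine, where 24.5% and 13.1% of all genes did, and without E2+ketamine replicate 1 the count was 1.

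For 2R6R-HNK the effect on IRF1 changed direction. Without E2 the drug raised IRF1 by 0.61, and on top of E2 its difference was -0.82 ± 0.0682, so that the interaction was -1.43 ± 0.0958 (adjusted p = 4.65e-18) and -1.32 after the correction. IRF2 moved the other way, from -0.03 without E2 to 0.53 on top of E2 (interaction 0.56 ± 0.129, adjusted p = 0.000179, corrected value 0.34 and called). The interactions of IRF3, IRF7 and IRF9 were -0.67, -0.95 and -0.55 (adjusted p = 3.17e-13, 2.43e-16 and 3.06e-07), and -0.29, -0.47 and -0.34 after the correction, all called. IRF5 was at -0.53 and not called (95% interval -1.16 to 0.10). Of the members 1 was positive and 4 were negative, against 31.5% and 25.2% of all genes.

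For 2S6S-HNK the interaction at IRF1 was -0.98 ± 0.101 (adjusted p = 3.2e-12), since its difference was -0.17 on vehicle and -1.15 ± 0.0700 on top of E2. The corrected interaction was -0.71 and called. IRF7 (-1.06 ± 0.0724, adjusted p = 2.96e-18) and IRF9 (-0.87 ± 0.0870, adjusted p = 1.22e-12) kept their calls at -0.32 and -0.53 after the correction. IRF3 (-0.72 ± 0.0631, adjusted p = 2.34e-14) was at -0.12 and not called after it. The interactions of IRF2 (0.29, adjusted p = 0.0401) and IRF5 (-0.79, adjusted p = 0.0312) were lost after the correction (-0.04 and -0.28). IRF2 also lost its call without 2S6S-HNK replicate 2 (0.27), E2 replicate 2 (0.26), E2+2S6S-HNK replicate 1 (0.27) or vehicle replicate 1 (0.24), and IRF5 without 2S6S-HNK replicate 1 (-0.74), E2 replicate 2 (-0.71), E2+2S6S-HNK replicate 2 (-0.72) or vehicle replicate 1 (-0.68). Of the members 1 was positive and 5 were negative, against 32.9% and 32.2% of all genes. After the correction 0 were positive and 3 negative, against 19.1% and 20.3% of all genes in that fit. The 3 interactions share the vehicle and E2 libraries. Across 15170 genes the interaction fell with GC content, with a Spearman correlation of -0.299 for ketamine, -0.591 for 2R6R-HNK and -0.770 for 2S6S-HNK.

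**Figure D4:**
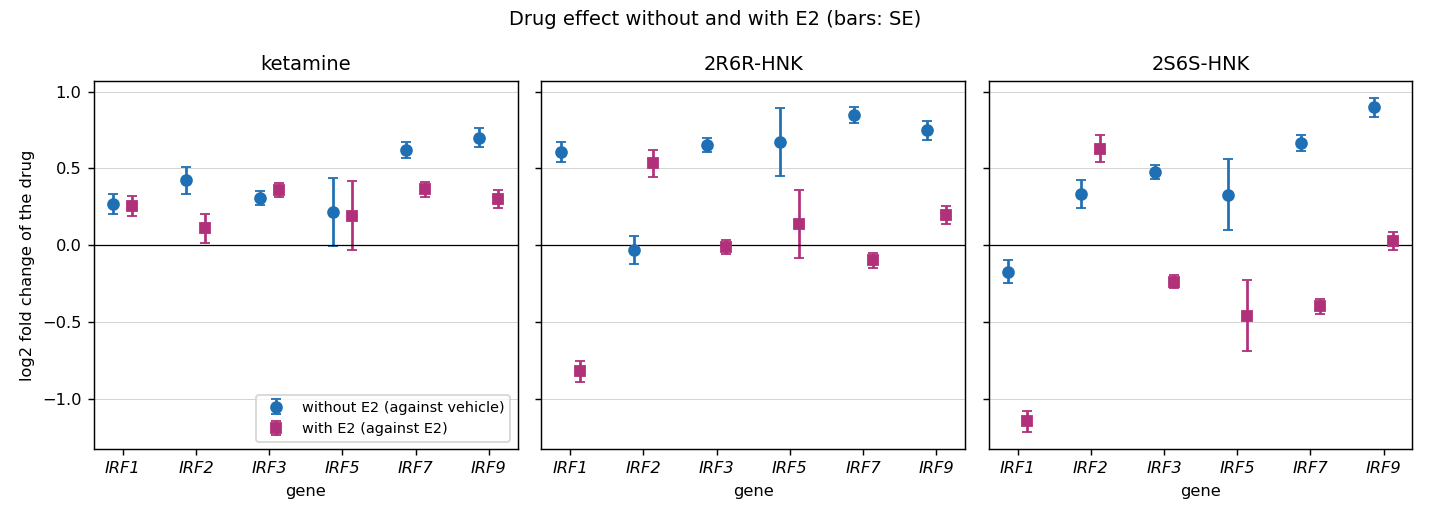
Log2 effect of each drug on the 6 IRF genes without E2 (circles, against vehicle) and with E2 (squares, against E2), with SE, as counted. Under ketamine the effects on IRF1 were 0.27 and 0.26, while 2R6R-HNK raised IRF1 by 0.61 without E2 and stood at -0.82 with it.

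The genes around the IRFs were read from lists of sensors, adaptors and kinases, interferons, receptors and JAK-STAT members, partners and regulators, and targets. Of 66 listed genes, 53 were tested. The 8 interferon genes, among them IFNB1, IFNA1 and IFNG, had at most 4 counts in any library and none was tested. Of the 53 genes, 25 were called higher and 11 lower under E2, 26 and 9 under ketamine, 28 and 11 under 2R6R-HNK and 25 and 14 under 2S6S-HNK. With E2 they were 29 and 10 under ketamine, 23 and 16 under 2R6R-HNK and 20 and 14 under 2S6S-HNK. After the correction they were 19 and 6 under E2, 24 and 9 under ketamine, 21 and 7 under 2R6R-HNK, 20 and 13 under 2S6S-HNK, 29 and 6 under E2+ketamine, 21 and 17 under E2+2R6R-HNK and 17 and 15 under E2+2S6S-HNK. The shares of all genes called in each treatment are given above. They were 24% to 34.3% higher and 32.5% to 37.4% lower as counted. After the correction they were 14.9% to 25.8% higher and 21.9% to 33.7% lower. As counted, the median of the 53 genes was 0.09 under E2+2R6R-HNK to 0.40 under E2+ketamine, while that of all genes was -0.0643 to -0.00268. The median of the 53 genes was not taken in the corrected fit.

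Among the sensors, DHX58, a helper of the RNA sensors, was called higher in 6 of 7 treatments, by up to 1.70 under 2S6S-HNK, from a vehicle level of 0.199 CPM, and in 3 of 7 after the correction. TLR4, the receptor for bacterial lipopolysaccharide, was called lower in 6 of 7, down to -1.20, and in 2 of 7 after the correction. MB21D1, the gene of the DNA sensor cGAS, was called higher in 5 of 7 as counted and in 7 of 7 after the correction (0.28 to 0.83). These are the sensors called most often. Of the other sensors tested, as counted, DDX58 was lower in 3 treatments and TLR3 in 2, with 0 higher, and IFIH1 was called in 0. TLR9 was higher in 3 and lower in 0, from a vehicle level of only 0.0250 CPM. Among adaptors and kinases, TBK1, a kinase of IRF3 and IRF7, was called lower in 7 of 7 treatments (-0.91 to -0.59), and in 3 of 7 after the correction (-0.28 to -0.08). IKBKE, of the same list, was called higher in 4 treatments and lower in 1 as counted. IRAK4, a kinase of the Toll-like receptor pathway, was lower in 7 of 7 (-0.82 to -0.31), and in 1 of 7 after the correction. TMEM173, the gene of the adaptor STING, was higher in 7 of 7 (0.29 to 0.73), and in 4 of 7 after the correction. The rest of this list went both ways as counted. TICAM1 was higher in 7 treatments and MAVS in 6, with 0 lower, while TRAF6 was lower in 7 and TRAF3 in 1, with 0 higher. IRAK1 was higher in 3 and lower in 3, MYD88 higher in 3 and lower in 1, and SLC15A4 higher in 1 and lower in 1.

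STAT2, a partner of IRF9, was called higher than vehicle in 7 of 7 treatments in both fits, by 0.48 to 0.94 as counted and by 0.43 to 0.88 after the correction. The receptor chain IFNAR1 was called lower in 7 of 7 (-0.73 to -0.36) and in 5 of 7 after the correction, and the kinase JAK1 was lower in 7 of 7 in both fits. The kinase TYK2 was higher in 7 of 7 in both fits, by 0.50 to 0.84 as counted and 0.11 to 0.31 after the correction. Of the other receptors and JAK-STAT members, IFNGR2 and IL10RB were higher in 7 treatments as counted and IFNAR2 in 5, with 0 lower. JAK2 and IFNGR1 were lower in 6 each and higher in 0. The 7 comparisons share the vehicle libraries, and how many of all genes were called in all 7 was not counted.

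Of the partners and regulators, USP18, a negative regulator of interferon signaling that interferon induces, was higher in 7 of 7 treatments (0.29 to 1.07) and in 6 of 7 after the correction. NFKB1, a subunit of NF-kB that acts beside IRFs at the IFNB1 promoter, was lower in 7 of 7 in both fits (-0.67 to -0.29 as counted). RELA, another subunit, was higher in 7 of 7 (0.18 to 0.79) and in 5 of 7 after the correction. Of the 17 targets tested, 6 were called higher and 2 lower under E2, 9 and 0 under ketamine, 8 and 1 under 2R6R-HNK, 9 and 2 under 2S6S-HNK, 9 and 1 under E2+ketamine, 7 and 3 under E2+2R6R-HNK and 8 and 1 under E2+2S6S-HNK, beside 24% to 34.3% of all genes higher and 32.5% to 37.4% lower. After the correction 6 to 13 were higher and 0 to 1 lower (all genes 14.9% to 25.8% higher and 21.9% to 33.7% lower). The rule names the targets called most often. NLRC5, the transactivator of class I antigen presentation genes, was higher in 7 of 7 (0.35 to 1.65) and in 4 of 7 after the correction. PSMB9, an immunoproteasome subunit, was higher in 7 of 7 (0.33 to 1.44) and in 6 of 7 after the correction. TAP1, the peptide transporter, was higher in 7 of 7 in both fits (0.44 to 1.25 as counted). Of the other 14 targets, which the rule does not name, ISG15 was higher in 7 treatments, BST2 and OAS1 in 6 each, MX1 in 5, IFIT1 in 4 and IL15 in 3, with 0 lower. BST2 and OAS1 rose from vehicle levels of only 0.133 and 0.315 CPM. Some went the other way or were not called. IFIT3, an interferon-induced gene, was lower in 4 treatments and higher in 0. B2M, the light chain of class I molecules, was lower in 4 and higher in 1, and IFIT2 was lower in 2 and higher in 1. GBP1 and GBP2 were higher in 1 each, GBP2 from a vehicle level of only 0.0250 CPM. CCL5, CIITA and CASP1 were called in 0, the last 2 from vehicle levels of only 0.0667 and 0.157 CPM. The listed target CXCL10 had 0 counts in every library and was not tested.

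**Figure D5:**
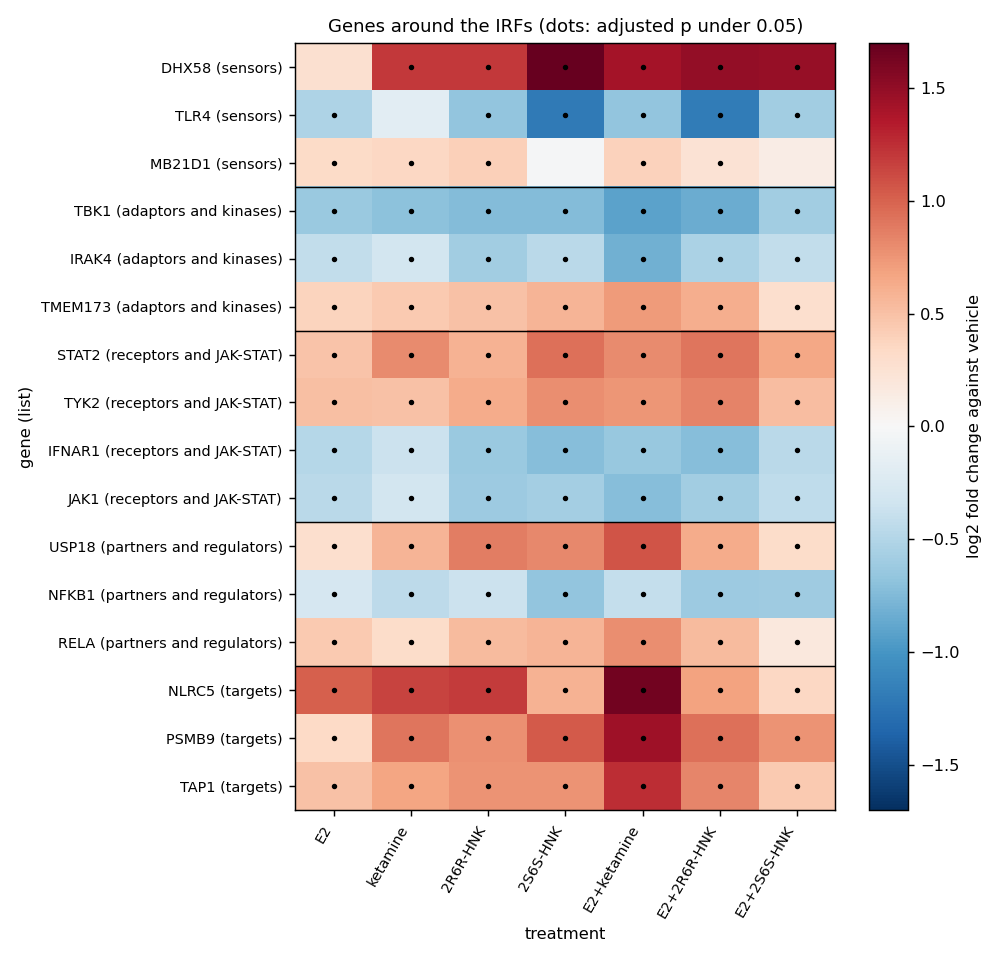
Log2 fold change against vehicle of 16 genes around the IRFs in the 7 treatments, by list, on a color scale centered on 0. Dots mark an adjusted p under 0.05. As counted, STAT2 and TYK2 were higher in all 7 treatments, and TBK1, IFNAR1 and JAK1 were lower in all 7, while after the correction TBK1 was lower in 3 and IFNAR1 in 5.

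The members also differed in which other genes followed the same pattern over the 16 libraries. These correlations of log2 CPM are a description, since the libraries share 8 treatments and a trend with GC content. IRF3 and IRF7 ran closest to each other among the members (Pearson r = 0.961 over 16 libraries), IRF9 followed IRF7 (r = 0.808) more than IRF1 (r = 0.186), and IRF1 and IRF2 ran in opposite directions (r = -0.744). Among 12748 genes with a mean of at least 1 CPM, those closest to IRF1 were SLC7A5 (r = 0.993), a transporter of large amino acids, KRT18 (r = 0.991), a keratin, and NDST1 (r = 0.985). Closest to IRF2 were TRIM22 (r = 0.956), an interferon-induced gene, ESRP1 (r = 0.943) and SAT1 (r = 0.936). Closest to IRF7 were SIPA1 (r = 0.985), UNC93B1 (r = 0.984), which brings Toll-like receptors to endosomes, and SLC2A4RG (r = 0.980). Closest to IRF3 were ALKBH7 (r = 0.990), TRMT2A (r = 0.985) and AGPAT2 (r = 0.984), and closest to IRF9 were CLEC3B (r = 0.956), TFEB (r = 0.953) and ARHGEF16 (r = 0.935). For IRF5 they were CCDC51 (r = 0.877), FANCC (r = 0.870) and PIP4K2C (r = 0.863).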

How the data were processed

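The authors made Ovation RNA-seq v2 libraries from HMC3 cells, sequenced read pairs, aligned them to UCSC hg19 and counted uniquely mapped, non-discordant pairs per gene with featureCounts 1.4.6. The submitters' processing notes name TopHat2 2.0.14 and Bowtie2 2.2.6. The deposited values are raw counts per gene for each of the 16 libraries, with no normalization. Of the counts from 1 to 9, 65.8% were even, against 49.9% of large counts, so halved counts were one of the alternatives.

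Groups came from the sample labels. Counts were filtered with filterByExpr, normalized by TMM and fitted by the quasi-likelihood test of edgeR 4.0.16 (R 4.3.3 and limma 3.58.1, a mean for each of 8 groups, 8 residual degrees of freedom, common biological coefficient of variation 2.81%). Each of 16 comparisons was adjusted by Benjamini-Hochberg over 16004 genes. FPKM used the length of the canonical GENCODE transcript on GRCh37. The GC and length correction was an offset from loess fits (span 0.5) per library, for the 94.8% of genes tested with a known transcript, through current or older symbols. Pattern correlations used log2 CPM with a prior count of 2.

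Alternatives were DESeq2 1.42.0, edgeR on the groups compared only, other size factors, other filters, halved counts, the replicate number as a block, the correction with and without that block, and each library left out in turn. The replicate block was not the main fit, since same-numbered libraries did not deviate together. The fit was tested on simulated data. The members, the gene lists and the tests were chosen with earlier results of these data known. All members are named, and from each list the 3 tested genes called in the most comparisons with vehicle (ties by the mean absolute log2 fold change), with JAK1, STAT2 and TYK2 in any case, and for each member the 3 genes with the highest Pearson correlation. One further gene was left out of the lists and their counts and is not reported here.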

Additional observations from a re-analysis of the deposited data

Results flagged for a closer look

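As counted, the effect of a drug on an IRF gene differed between cells with and without E2 in 13 of 18 tests of that difference (6 genes and 3 drugs, edgeR's quasi-likelihood test, adjusted over all genes tested). Of all genes tested, 24.5% had a positive and 13.1% a negative interaction with ketamine, 31.5% and 25.2% with 2R6R-HNK, and 32.9% and 32.2% with 2S6S-HNK. After the GC and length correction 3 members were called with ketamine, 5 with 2R6R-HNK and 3 with 2S6S-HNK, against 2, 5 and 6 as counted. In the corrected fit 25% of all genes had a positive and 11% a negative interaction with ketamine. The shares were 21.5% and 21.5% with 2R6R-HNK, and 19.1% and 20.3% with 2S6S-HNK.

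With ketamine the interaction was -0.258 for IRF7 and -0.398 for IRF9, and -0.151 and -0.384 after the correction, which also called IRF2 (-0.353). IRF7 was not called without E2+ketamine replicate 1. With 2R6R-HNK it was -1.43 for IRF1, 0.563 for IRF2, -0.665 for IRF3, -0.946 for IRF7 and -0.549 for IRF9, and in the same order -1.32, 0.343, -0.289, -0.469 and -0.343 after the correction. With 2S6S-HNK it was -0.975 for IRF1, 0.295 for IRF2, -0.716 for IRF3, -0.789 for IRF5, -1.06 for IRF7 and -0.871 for IRF9. After the correction these were -0.708 for IRF1, -0.321 for IRF7 and -0.528 for IRF9, while IRF2, IRF3 and IRF5 did not pass the test. As counted, IRF2 and IRF5 also lost the call with 2S6S-HNK when any 1 of 4 libraries was left out. The interaction fell with GC content across genes for all 3 drugs (Spearman correlation -0.299 for ketamine, -0.591 for 2R6R-HNK and -0.770 for 2S6S-HNK), and the part of that trend in these values was not tested.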

How the results depend on the processing

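Of 768 log2 fold changes from settings without the GC correction and with all libraries, 748 kept their direction and their side of the threshold. With the GC and length correction 59 of 96 did, 14 kept their direction and lost the call, 1 kept its direction and gained it, and 22 changed direction, whether called or not, and the same numbers were found with the replicate block beside it. The replicate block alone changed no call (96 of 96), so the members called stayed at 4 under E2 and 5 under 2R6R-HNK, for example. Same-numbered libraries did not deviate together (r = -0.0258 to 0.0451 over 28 pairs of groups). Of 456 values with a library left out, 418 were unchanged in direction and call. Leaving a library out gave 3 to 4 members called for 2R6R-HNK against 2S6S-HNK, 3 to 5 for E2+2R6R-HNK against E2+2S6S-HNK and 1 to 3 for the interaction with ketamine.

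With the correction, with or without the block, the members called were 3 under ketamine (all genes 18% higher and 30.7% lower), 3 under 2S6S-HNK (25% and 31.2%), 1 for E2+2R6R-HNK against E2+2S6S-HNK (all genes 17.2% higher and 11.8% lower) and 3 for the interaction with 2S6S-HNK (19.1% and 20.3%). The reversed values with the correction, followed by those with the block added where they differ, were as follows. IRF1 came to 0.084 for the interaction with ketamine. IRF2 came to 0.0728 under E2, 0.202 under 2R6R-HNK, 0.294 under E2+ketamine, 0.0151 and 0.0152 for E2+2R6R-HNK against E2+2S6S-HNK, and -0.0352 and -0.0353 for the interaction with 2S6S-HNK. IRF3 came to -0.0190 under ketamine, -0.00943 and -0.00931 under 2S6S-HNK, -0.0778 under E2+2R6R-HNK, -0.0659 and -0.0661 under E2+2S6S-HNK, and -0.0119 and -0.0117 for E2+2R6R-HNK against E2+2S6S-HNK. IRF5 came to -0.126 and -0.127 under E2, -0.0642 and -0.0652 under ketamine, -0.0610 and -0.0617 under 2S6S-HNK, -0.122 and -0.126 under E2+ketamine, -0.0920 and -0.0924 under E2+2R6R-HNK, 0.0304 and 0.0334 for E2+2R6R-HNK against E2+ketamine, and 0.0681 and 0.0661 for the interaction with ketamine. IRF7 came to -0.135 and -0.136 for 2S6S-HNK against ketamine, -0.101 under E2+2R6R-HNK, and -0.118 and -0.117 under E2+2S6S-HNK. IRF9 came to -0.0555 and -0.0564 for 2R6R-HNK against ketamine. The cause was not tested.

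Other size factors reversed only values near 0. IRF2 was 0.00927 (DESeq2), 0.00883 (RLE size factors) and 0.0481 (upper-quartile) under 2R6R-HNK, and 0.0208, 0.0209 and 0.0313 under E2+ketamine, and the interaction of IRF3 with ketamine was -0.0351 (upper-quartile). With a library left out, IRF1 ranged from -0.0545 to 0.0279 for the interaction with ketamine, and IRF2 from -0.0796 to 0.0215 under 2R6R-HNK, -0.122 to 0.0533 under E2+ketamine and -0.198 to 0.00235 for E2+2R6R-HNK against E2+2S6S-HNK. IRF5 ranged from -0.295 to 0.241 for E2+2R6R-HNK against E2+ketamine and from -0.318 to 0.218 for the interaction with ketamine. IRF5 rested on 59 to 148 counts a library and kept its calls when the counts were halved, while IRF4 (at most 12 counts) and IRF8 (at most 4) were too low to be tested.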
